A study of Arabidopsis thaliana with 12 samples.

Results

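The 9 MIR genes described here make the microRNAs that start secondary siRNA production in Arabidopsis thaliana: MIR173 (AT3G23125), MIR390A (AT2G38325), MIR390B (AT5G58465), MIR161 (AT1G48267), MIR400 (AT1G32582), MIR828 (AT4G27765), MIR393A (AT2G39885), MIR393B (AT3G55734) and MIR472 (AT1G12294). They were picked by gene identifier out of 30926 gene models in the deposited count table, which holds 168 MIR genes in all. The question asked of them was whether the triggers persist in plants that have lost the siRNAs made from their targets. Small RNA below 200 nt was sequenced from the aerial parts of 18-day-old plants of 4 genotypes, with 3 libraries labelled as biological replicates in each. Col-0 is the wild type. The mutant ein5-1 ski2-3 carries mutations in EIN5, a cytoplasmic exonuclease that digests uncapped RNA from the 5′ end, and in SKI2, a helicase that feeds RNA to the exosome for digestion from the 3′ end. The mutant rdr6-11 is affected in RDR6, the polymerase that copies cleaved target RNA into double strands. The mutant rdr6-11 ein5-1 ski2-3, called the triple mutant below, carries all of these mutations, so that its control for the loss of RDR6 is ein5-1 ski2-3 and not Col-0.

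Most plant microRNAs guide an Argonaute protein to a target transcript, which is cut and then decays. A few do more. Most often after cleavage by a 22-nt microRNA, or after binding by miR390 in the Argonaute AGO7, their target is copied by RDR6. It is then diced into phased secondary siRNAs. The non-coding TAS transcripts exist for this purpose, with miR173 acting on TAS1 and TAS2, miR390 on TAS3 and miR828 on TAS4. Coding targets are the pentatricopeptide repeat (PPR) genes for miR161 and miR400, the auxin receptor genes TIR1 and AFB1 to AFB3 for miR393, MYB genes of anthocyanin synthesis for miR828, and disease resistance genes of the CC-NB-LRR class for miR472.

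The mature strands are shown because their length and identity decide both which target they pair with and how their reads can be counted. They were read from the RefSeq annotation of the TAIR10.1 assembly, which matched all 9 members, and are written 5′ to 3′ with the seed, bases 2 to 8, in capitals.
miR173-5p: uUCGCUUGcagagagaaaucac
miR390a-5p: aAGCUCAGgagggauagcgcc
miR390b-5p: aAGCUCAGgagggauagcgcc
miR161.1: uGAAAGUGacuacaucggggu
miR161.2: uCAAUGCAuugaaagugacua
miR400: uAUGAGAGuauuauaagucac
miR828: uCUUGCUUaaaugaguauucca
miR393a-5p: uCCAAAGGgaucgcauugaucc
miR393b-5p: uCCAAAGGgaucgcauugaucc
miR472-3p: uUUUUCCUacuccgcccauacc
The strands of miR173, miR828, miR393 and miR472 are 22 nt long, and those of miR390, miR161 and miR400 are 21 nt long. The annotated miR161 and miR400 strands thus lack the 22-nt length. Whether other small RNAs also start the PPR siRNAs was not tested. The miR390 strands of the MIR390A and MIR390B loci are the same in all 21 bases, and the miR393 strands of MIR393A and MIR393B are the same in all 22. The other seeds differ from one another. The MIR161 hairpin yields a pair of overlapping microRNAs, miR161.1 and miR161.2, with unrelated seeds.

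The members lie apart in the genome. MIR173 is at chr3:8236153-8236254, MIR390A at chr2:16061954-16062060 and MIR390B at chr5:23636947-23637066. MIR161 is at chr1:17825685-17825857, MIR828 at chr4:13846971-13847161, MIR393A at chr2:16652101-16652233 and MIR393B at chr3:20691647-20691806. All of these are on the forward strand and between annotated genes, the nearest of which are AT3G23122 for MIR173, AT2G08955 for MIR390A, TAF15b for MIR390B, AT1G48268 for MIR161, FEY for MIR828, AT2G09085 for MIR393A and AT3G08595 for MIR393B. MIR400, at chr1:11785936-11786037 on the forward strand, sits inside an intron of AT1G32583. MIR472, at chr1:4182132-4182299 on the reverse strand, falls within an exon of 1 of the 4 annotated transcripts of AT1G12290, itself a CC-NB-LRR gene on the same strand, and shares no exon base with the other 3.

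Target sites are shown for a selection of products with many reads or a close match, and other loci match as closely. Each is the stretch of the target gene, on its own strand and in DNA letters, that pairs best with the trigger, and capitals mark bases in Watson-Crick pairs. A pairing of G with U was scored 0.5 and a mismatch 1, so a lower score is a closer match.
TAS1A for miR173-5p: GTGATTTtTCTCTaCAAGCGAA
TAS2 for miR173-5p: GTGATTTtTCTCTcCAAGCGAA
TAS3A for miR390, the closest match: GGtGtTATCCtatCTGAGCTT
TAS3A for miR390, the next: ttgtCTATCCCTCCTGAGCTa
TAS4 for miR828: TGGAATACTCATTTgAGCAAGA
AT1G63400 for miR161.2: TAGTCACTTTCAAcGCATTGA
AT1G06580 for miR400: GTGACTTATAATACTCTCATA
AFB2 for miR393: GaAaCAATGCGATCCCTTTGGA
AT5G43740 for miR472-3p: GGTATGGGgGGAGTAGGAAAAA
The sites are at chr2:11722081-11722102 (TAS1A), chr2:16539991-16540012 (TAS2), chr3:5862099-5862119 and chr3:5862343-5862363 (TAS3A), chr3:9417809-9417830 (TAS4), chr1:23508308-23508328 (AT1G63400), chr1:2014950-2014970 (AT1G06580), chr3:9870237-9870258 (AFB2) and chr5:17566541-17566562 (AT5G43740). The TAS4 site pairs with miR828 at 21 of 22 bases and has a G:U pair at the other. The TAS1A and TAS2 sites pair at 20 of 22 bases. The PPR gene AT1G06580 pairs with miR400 over all 21 bases, yet it had only 3 to 8 counts per library in Col-0. This gene was picked out after its values were seen. The AFB2 site pairs at 20 of 22 bases and the AT5G43740 site at 21 of 22. A match is a description of the letters and not a measured cleavage site.

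The table held 2358724 to 2909767 counts per library. The share of all counts that fell on MIR genes differed between genotypes and bears on every value below. It was 2.29 to 2.45% in Col-0, 5.29 to 6.09% in rdr6-11, then 1.92 to 2.18% in the triple mutant. In ein5-1 ski2-3 it was 3.69, 3.67 and 2.43% in replicates 1, 2 and 3, so that replicate 3 stands apart. Replicates 1 and 2 of ein5-1 ski2-3 differed by little more than sampling noise over all genes, the chi-square averaging 1.04 a gene, against 1.14 to 3.30 for the other pairs of replicates, and were counted as 1 sample, which leaves n = 2 for that genotype. The evidence for this is limited. Over protein-coding genes alone their average was 1.02, and replicates 2 and 3 of Col-0, at 1.01, and of the triple mutant, at 1.04, came as close and were kept apart. Over the 9 members the merged pair averaged 2.69. With 12 separate libraries the counts of members called were as given below in every comparison, except that MIR472 was also called higher in ein5-1 ski2-3 than in Col-0, at 0.39 (edgeR adjusted p = 0.048). The 9 members together made up 4.19 to 5.09% of the MIR counts in every library of every genotype. Of 6 leaf markers, all were present, with summed counts of 1903 to 2760 per library. Of 6 root markers, 2 or 3 were at 0 in each genotype. Their summed counts were 2 to 3 in Col-0, 3 to 7 in rdr6-11, 35 to 47 in ein5-1 ski2-3, then 17 to 24 in the triple mutant. In ein5-1 ski2-3 nearly all of these fell on SHR, with 28, 20 and 20, and SCR, with 19, 13 and 20. The other root markers, PIN2, RHD6, EXPA7 and COBL9, had 0 to 3 counts each in every library. These are small RNA counts, and their part in the members' differences was not tested. The 4 flower markers had at most 3 counts in sum. The RDR6, EIN5 and SKI2 loci had at most 7 counts of small RNA in any library, too few to check the genotype labels. In such bulk samples fewer cells of a type and less RNA per cell cannot be told apart.

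Loss of RDR6 with decay intact left every measured trigger in place. All 8 members that passed the filter on low counts rose in rdr6-11 relative to Col-0, by 1.48-fold for MIR400 to 2.78-fold for MIR393A. Against this, 21.3% of the 7219 genes tested were called higher in that comparison, and 36.6% in either direction (edgeR quasi-likelihood test, Benjamini-Hochberg adjusted p under 0.05). The median log2 change was 1.00 over the 8 tested members, 0.76 over 100 other tested MIR genes and -0.01 over all genes tested. Of those 100 other MIR genes, 78 rose and 0 fell. When libraries were scaled to the summed counts of the non-member MIR genes instead, which shifts the median of all genes by -0.75, MIR390A, MIR390B, MIR393A and MIR393B were still called higher. MIR173 was then at 0.08 and MIR161, MIR400 and MIR472 at -0.18, -0.20 and -0.14, none of them called.

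The same loss of RDR6 in plants without EIN5 and SKI2 gave a different picture. In the triple mutant relative to ein5-1 ski2-3, MIR390A and MIR390B rose, MIR393A and MIR393B fell, and MIR173, MIR161, MIR400 and MIR472 passed the test in neither direction. In this comparison 14.4% of all tested genes were called higher and 27.0% lower, which is 41.3% in all. The median log2 change was -0.13 over the members, -0.09 over the other MIR genes and -0.21 over all genes. The rise of the MIR390 pair was still called when scaled to the other MIR genes, with a log2 change of 0.84 for each. It was not called when scaled to library totals, at 0.23 for each. The fall of the MIR393 pair was not called under the scaling to other MIR genes, at -0.27 for MIR393A and -0.15 for MIR393B. Each comparison has its own controls, and the difference between the responses is tested further below.

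**Figure D1:**
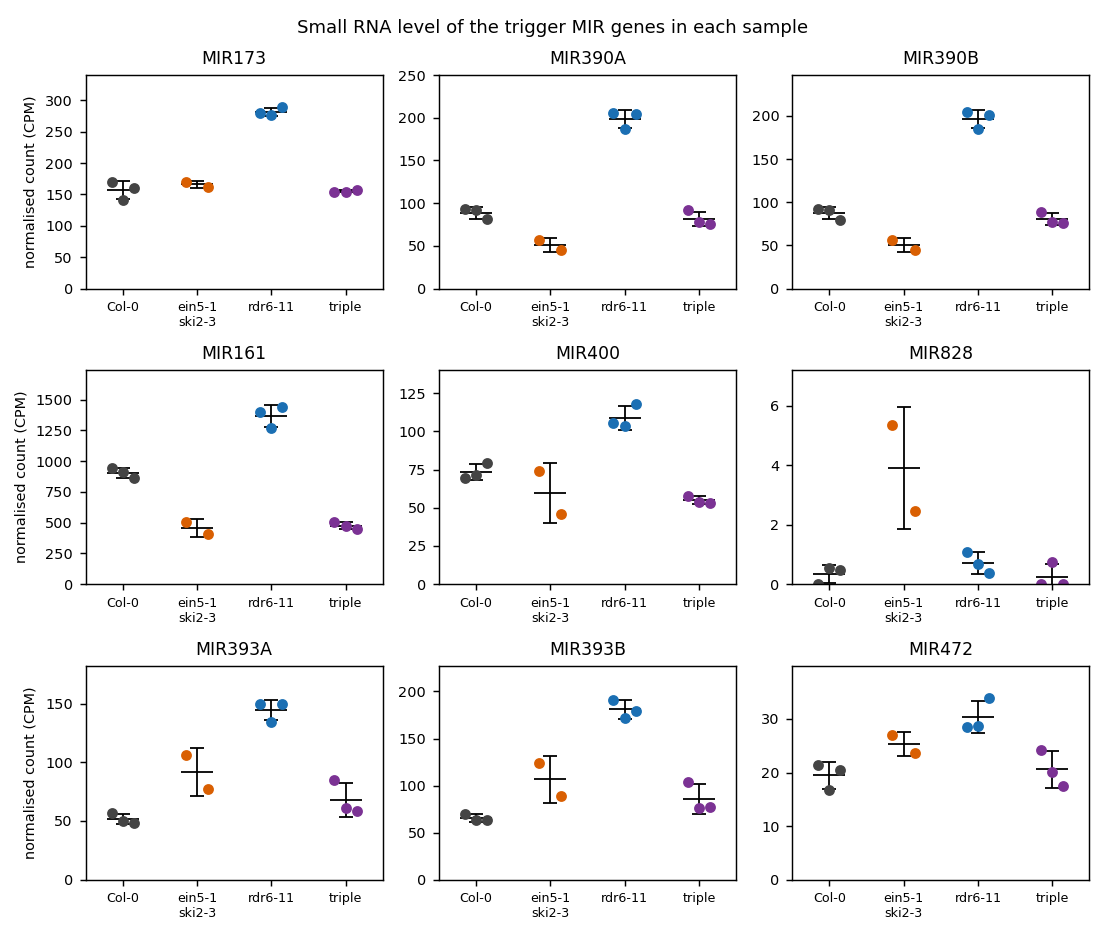
Normalised count (CPM, linear axis from 0) of each trigger MIR gene in 11 samples; points are samples, horizontal marks are means and bars are SD, and the left point of ein5-1 ski2-3 is the sum of replicates 1 and 2. The 3 rdr6-11 samples lie above all others for each member except MIR828, which is highest in ein5-1 ski2-3.

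**Figure D2:**
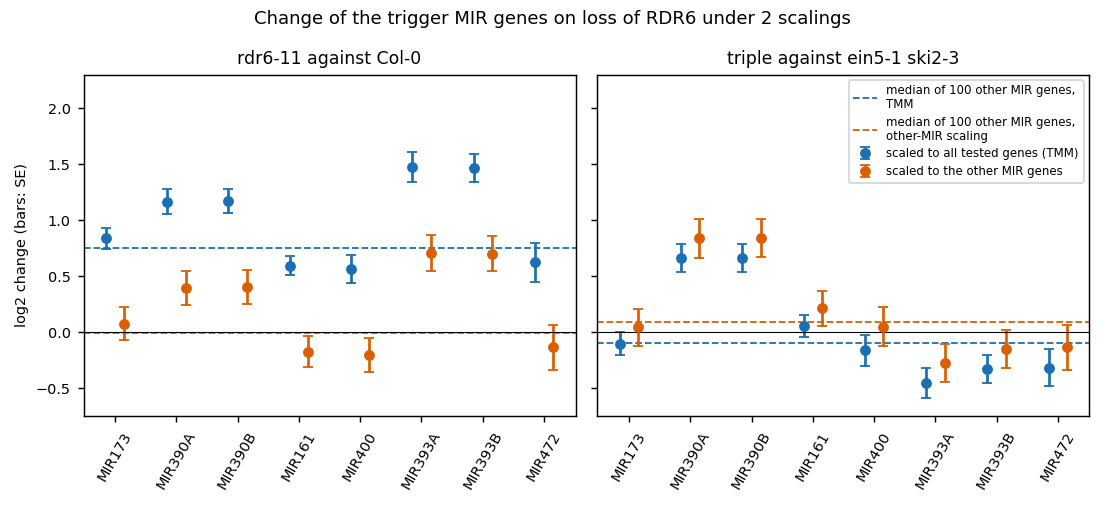
Log2 change of 8 tested members on loss of RDR6 in wild type (left) and in ein5-1 ski2-3 (right), with SE bars; blue is TMM scaling, orange is scaling to the summed counts of the other MIR genes, and dashed lines are the medians of 100 other MIR genes. The MIR390 pair lies above the median of the other MIR genes in both panels, and the MIR393 pair does so on the left.

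MIR173 (AT3G23125) is the trigger of TAS1 and TAS2. Its counts were 349, 255 and 337 in Col-0, 556, 652 and 595 in ein5-1 ski2-3, 775, 811 and 794 in rdr6-11, then 401, 414 and 414 in the triple mutant. After normalisation these correspond to 157 ± 14.3 CPM (SD, n = 3) in Col-0, 166 ± 5.74 (n = 2), 282 ± 6.57 (n = 3) and 155 ± 1.49 (n = 3). The rdr6-11 samples lay above all others, and both remaining mutants overlapped with Col-0. The log2 change was 0.84 ± 0.10 (SE) in rdr6-11, with an edgeR adjusted p of 3.1e-10. In the triple mutant relative to ein5-1 ski2-3 it was -0.10 ± 0.10 (adjusted p = 0.44), a sign that turned under some scalings.

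The MIR173 products nearly vanished in the same libraries. TAS1A had 2656, 2202 and 2659 counts in Col-0 against 38, 36 and 33 in rdr6-11. TAS2 had 2932, 2492 and 2956 counts in Col-0 against 19, 21 and 22 in rdr6-11. Neither locus had overlapping groups, and TAS2 fell by 7.57 on the log2 scale. Summed over TAS1A, TAS1B, TAS1C and TAS2, the products came to 26.4 to 29.9 counts per MIR173 count in Col-0 against 0.145 to 0.155 in rdr6-11. This ratio does not depend on how libraries are scaled. In ein5-1 ski2-3 it was 21.0 to 29.0, and in the triple mutant 0.509 to 0.633. The trigger-to-product ratio was thus 187-fold higher in rdr6-11 than in Col-0, and 40.4-fold higher in the triple mutant than in ein5-1 ski2-3. Between rdr6-11 and the triple mutant, the ratio was 3.91-fold higher in rdr6-11, with groups that did not overlap.

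MIR390A and MIR390B trigger the TAS3 siRNAs that act on auxin response factor genes. Their hairpins are shown because they differ in the loop and not in the miR390 strand (RefSeq, TAIR10.1, forward strand, mature strands in capitals).
MIR390A: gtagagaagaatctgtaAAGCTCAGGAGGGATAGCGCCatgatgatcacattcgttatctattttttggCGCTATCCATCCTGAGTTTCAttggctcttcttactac
MIR390B: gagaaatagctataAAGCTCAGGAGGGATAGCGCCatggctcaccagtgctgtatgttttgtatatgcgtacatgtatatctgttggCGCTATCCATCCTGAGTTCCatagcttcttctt
MIR390A had 192, 165 and 170 counts in Col-0 and MIR390B had 189, 163 and 167. In rdr6-11 the counts were 569, 548 and 561 against 564, 541 and 553. In all 12 libraries MIR390B had at least 97.1% of the count of MIR390A and never more. The near identity shows that reads of the shared strand were counted at both loci, so the pair is 1 measurement and not 2, and the loci cannot be told apart here.

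MIR390A had 173, 227 and 167 counts in ein5-1 ski2-3 and 238, 208 and 201 in the triple mutant. On the TMM scale, though not in raw counts, the MIR390 pair was lowest in ein5-1 ski2-3. The log2 change of MIR390A from Col-0 to ein5-1 ski2-3 was 0.03 with library totals and -0.33 with the summed other MIR genes, neither called. In CPM, MIR390A was at 88.7 ± 6.69 (SD, n = 3) in Col-0, 51.0 ± 7.69 (n = 2) in ein5-1 ski2-3, 199 ± 10.6 (n = 3) in rdr6-11, then 81.7 ± 8.48 (n = 3) in the triple mutant. The rdr6-11 samples were above and the ein5-1 ski2-3 samples below all others, and Col-0 and the triple mutant overlapped. MIR390A rose by 1.17 ± 0.11 on the log2 scale in rdr6-11 (edgeR adjusted p = 1.1e-12). It also rose by 0.66 ± 0.13 in the triple mutant relative to ein5-1 ski2-3 (adjusted p = 3.2e-05). Of the 100 other MIR genes, 8 rose by more than MIR390A in the first of these comparisons and 4 in the second.

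TAS3A, the most covered TAS3 locus, had 778, 632 and 744 counts in Col-0 against 21, 20 and 16 in rdr6-11. It had 858, 815 and 689 counts in ein5-1 ski2-3, then 77, 49 and 61 in the triple mutant. TAS3B had 49 to 69 counts in Col-0 against 0 or 1 in every rdr6-11 and triple mutant library. TAS3A thus fell less in the triple mutant, with a log2 change of -3.17, than TAS3B, with -8.91, where the latter value depends on counts at or near 0. The products of TAS3A, TAS3B and TAS3C came to 2.11 to 2.42 counts per count of the MIR390 pair in Col-0, 2.00 to 2.86 in ein5-1 ski2-3, 0.0153 to 0.0230 in rdr6-11, then 0.120 to 0.166 in the triple mutant. Because the trigger strand was counted at both loci, these ratios are too low by a constant factor, which cancels between genotypes. The trigger-to-product ratio was 117-fold higher in rdr6-11 than in Col-0 and 16.1-fold higher in the triple mutant than in ein5-1 ski2-3. Without TAS3A, the log2 difference in the latter comparison was 6.53 in place of 4.01. The value of 6.53 rests on 1 or 2 TAS3C counts per triple mutant library, with TAS3B at 0.

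**Figure D3:**
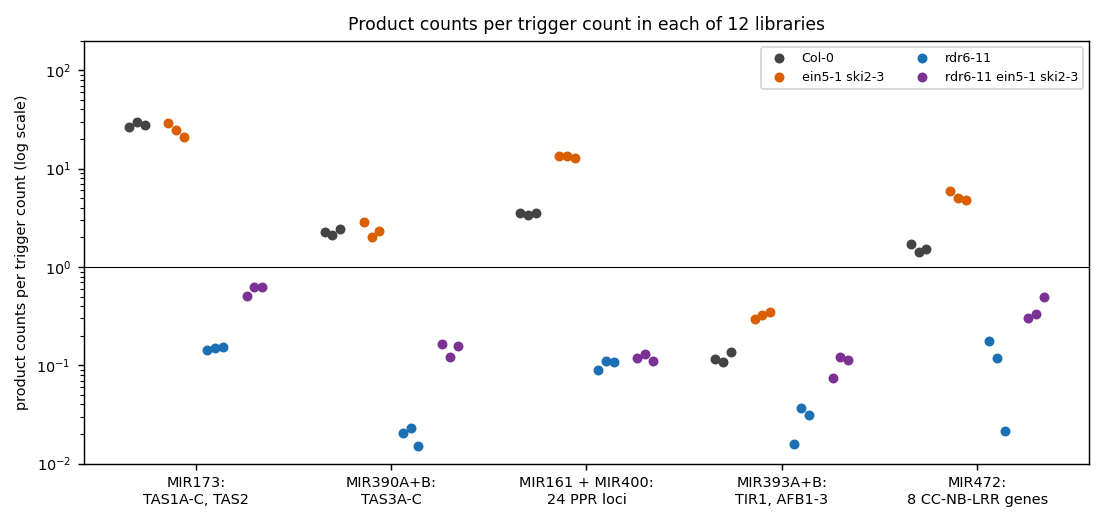
Summed product counts divided by summed trigger counts in each of 12 libraries (log axis) for 5 trigger groups; colours mark genotypes and each point is 1 library. In all groups the rdr6-11 and triple mutant points lie below those of their controls, by the least for MIR393.

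MIR161 and MIR400 act on the same cluster of PPR genes, which encode RNA-binding proteins of the organelles. MIR161 (AT1G48267) was the most abundant trigger, with 1943, 1642 and 1808 counts in Col-0, 1784, 1829 and 1486 in ein5-1 ski2-3, 3864, 3715 and 3961 in rdr6-11, then 1319, 1272 and 1184 in the triple mutant. Its normalised level was 906 ± 41.8 CPM (SD, n = 3), 457 ± 73.8 (n = 2), 1369 ± 91.7 (n = 3) and 477 ± 29.3 (n = 3) in that order. The genotypes without EIN5 and SKI2 overlapped each other and lay below Col-0. MIR161 rose by 0.59 ± 0.08 in rdr6-11 (edgeR adjusted p = 9.5e-08), and its value reversed to -0.18 when scaled to the other MIR genes. In the triple mutant relative to ein5-1 ski2-3 it was at 0.06 ± 0.10 (adjusted p = 0.66).

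MIR400 (AT1G32582) had 143, 129 and 166 counts in Col-0, 265, 259 and 169 in ein5-1 ski2-3, 291, 303 and 324 in rdr6-11, then 151, 145 and 140 in the triple mutant. It was the least stable of the well-covered members within ein5-1 ski2-3, where the sum of replicates 1 and 2 was at 73.9 CPM and replicate 3 at 46.1. The log2 change was 0.57 ± 0.13 in rdr6-11 (edgeR adjusted p = 0.00029) and -0.16 ± 0.14 in the triple mutant relative to ein5-1 ski2-3 (adjusted p = 0.37). The first value turned to -0.20 when scaled to the other MIR genes. The gene model AT1G32583, whose intron holds MIR400, had 145, 130 and 167 counts in Col-0 against 296, 306 and 324 in rdr6-11. These counts are nearly those of MIR400, so the same reads were counted for both.

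Of 24 PPR loci listed as products, 21 passed the filter, and all of these fell in rdr6-11 and in the triple mutant relative to their controls. The background shares of lower calls were 15.3% and 27.0%. Some had to enter through the ein5-1 ski2-3 group, and the loci share sequence and reads, so they are not 21 independent measurements. Like the other product lists, this one was chosen with earlier results of these data known. AT1G63130, the most covered, had 737, 562 and 685 counts in Col-0 against 6, 4 and 9 in rdr6-11. In ein5-1 ski2-3 it had 2914, 2907 and 2286 counts, and in the triple mutant 8, 7 and 9. AT1G63080 and AT1G63400, the next most covered, were also far lower without RDR6, with 717 and 679 counts in replicate 1 of Col-0 against 6 and 27 in replicate 1 of rdr6-11. The pseudogene AT1G62860 fell the least of the 21 in both comparisons and kept 278, 344 and 357 counts in rdr6-11, then 113, 104 and 94 in the triple mutant. It was singled out after its values were seen.

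Relative to MIR161 and MIR400, the PPR products came to 3.34 to 3.52 counts per trigger count in Col-0 against 12.9 to 13.5 in ein5-1 ski2-3. In rdr6-11 they came to 0.0890 to 0.110 and in the triple mutant to 0.110 to 0.129. Because the PPR loci share reads, these sums count some reads more than once. Whether that excess is the same in each genotype was not tested. The trigger-to-product ratio was 33.9-fold higher in rdr6-11 than in Col-0 and 111-fold higher in the triple mutant than in ein5-1 ski2-3. Without AT1G62860 the log2 difference was 7.08 in place of 5.08 in the first comparison and 8.15 in place of 6.79 in the second. Loss of EIN5 and SKI2 alone thus moved this ratio the other way, 3.81-fold toward the products, while the level of MIR161 in those plants was the lower one. That difference in ratio was larger than the spread between libraries, with groups that did not overlap.

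MIR393A and MIR393B make the microRNA that silences the auxin receptors. The hairpins are shown because the miR393 strand is shared and the opposite strand differs at a base (RefSeq, TAIR10.1, forward strand, mature strands in capitals).
MIR393A: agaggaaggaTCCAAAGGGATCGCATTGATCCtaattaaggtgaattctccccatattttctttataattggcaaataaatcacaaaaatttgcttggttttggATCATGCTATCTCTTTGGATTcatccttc
MIR393B: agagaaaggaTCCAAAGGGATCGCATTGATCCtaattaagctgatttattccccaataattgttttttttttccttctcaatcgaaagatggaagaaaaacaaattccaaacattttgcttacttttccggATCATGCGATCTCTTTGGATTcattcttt
The opposite strands match at 20 of 21 bases. MIR393B had the higher count in all 12 libraries, by 24 to 116 reads. Since reads of the shared strand were counted at both loci, that excess is what sets the loci apart, and the parallel changes below are largely those of shared reads.

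MIR393A had 117, 90 and 102 counts in Col-0, 393, 362 and 284 in ein5-1 ski2-3, 413, 394 and 411 in rdr6-11, then 221, 163 and 155 in the triple mutant. MIR393B had 144, 114 and 132, then 454, 424 and 327, then 529, 505 and 492, then 271, 203 and 205 counts. In CPM, MIR393A was at 51.8 ± 4.43 (SD, n = 3) in Col-0, 91.9 ± 20.5 (n = 2) in ein5-1 ski2-3, 144 ± 8.80 (n = 3) in rdr6-11, then 68.2 ± 14.6 (n = 3) in the triple mutant. Col-0 was the lowest group for both genes and overlapped with no other group, while ein5-1 ski2-3 and the triple mutant overlapped.

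MIR393A rose by 1.48 ± 0.13 on the log2 scale in rdr6-11 (edgeR adjusted p = 2.1e-13) and MIR393B by 1.47 ± 0.12 (adjusted p = 3.8e-14). Of the 100 other MIR genes, 4 rose by more. Scaled to the other MIR genes, the values were 0.71 and 0.70 and both were still called. In the triple mutant relative to ein5-1 ski2-3, MIR393A was lower by -0.45 ± 0.13 (adjusted p = 0.0056) and MIR393B by -0.33 ± 0.13 (adjusted p = 0.034). Those calls depended on the samples and on the scaling and fit. With ein5-1 ski2-3 replicate 3 as the only sample of that genotype, the values were 0.0056 and 0.14. Leaving out replicate 3 of the triple mutant ended both calls. So did leaving out replicate 2 of rdr6-11, which is in neither group compared. That omission moved the median log2 change of all genes from -0.21 to -0.015. Leaving out replicate 1 of ein5-1 ski2-3 or replicate 2 of the triple mutant ended the call of MIR393B. With all samples of both genotypes kept, DESeq2, either scaling to other MIR genes and the fit to these genotypes alone ended both calls. With ein5-1 ski2-3 replicate 3 alone, MIR161 and MIR400 were called higher, at 0.43 and 0.45.

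The siRNAs from the auxin receptor genes were sparse. AFB2 had 18, 6 and 12 counts in Col-0, 139, 147 and 123 in ein5-1 ski2-3, 5, 9 and 8 in rdr6-11, then 19, 18 and 18 in the triple mutant. AFB3 had 7, 5 and 9 counts in Col-0 against 60, 55 and 53 in ein5-1 ski2-3, and TIR1 had 4, 8 and 7 and then 44, 48 and 36. Of these 3 tested genes, AFB2 fell in rdr6-11 (edgeR adjusted p = 0.0099), and all 3 fell in the triple mutant relative to ein5-1 ski2-3. Of all tested genes 15.3% and 27.0% were called lower in these comparisons. AFB3 had at most 10 counts in any library outside ein5-1 ski2-3, so its fall from that genotype is favoured by the filter. AFB1 had too few counts for a test. Product counts per trigger count were 0.108 to 0.137 in Col-0, 0.293 to 0.350 in ein5-1 ski2-3, 0.0159 to 0.0367 in rdr6-11, then 0.0752 to 0.123 in the triple mutant. The trigger-to-product ratio was 4.54-fold higher in rdr6-11 than in Col-0 and 3.23-fold higher in the triple mutant than in ein5-1 ski2-3, the smallest of the 5 trigger groups in both comparisons.

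MIR472 (AT1G12294), whose targets encode immune receptors, was the weakest member that could be tested. It had 44, 30 and 43 counts in Col-0, 87, 104 and 87 in ein5-1 ski2-3, 79, 84 and 93 in rdr6-11, then 63, 54 and 46 in the triple mutant. This is 19.5 ± 2.51 CPM (SD, n = 3), 25.3 ± 2.27 (n = 2), 30.4 ± 3.05 (n = 3) and 20.6 ± 3.42 (n = 3). Only the rdr6-11 samples lay above all others, and ein5-1 ski2-3 overlapped with the triple mutant. MIR472 rose by 0.63 ± 0.17 on the log2 scale in rdr6-11 (edgeR adjusted p = 0.0032) and was at -0.14 when scaled to the other MIR genes. In the triple mutant relative to ein5-1 ski2-3 it was at -0.31 ± 0.17 (adjusted p = 0.13). AT1G12290, the CC-NB-LRR gene in which MIR472 lies, had 0 to 3 counts in every library, so MIR472 reads were not counted for it.

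Of 8 CC-NB-LRR genes listed, 4 passed the filter. Of these, 3 fell in rdr6-11 relative to Col-0 and all 4 fell in the triple mutant relative to ein5-1 ski2-3, where 15.3% and 27.0% of all tested genes were called lower. AT1G15890 had at most 4 counts in any library outside ein5-1 ski2-3 and passed the filter through that genotype. AT1G51480, with at most 13 counts outside it, passed in the same way. The falls of these genes from ein5-1 ski2-3 are thus partly set by the filter. AT5G43740 had 32, 20 and 33 counts in Col-0, 257, 253 and 203 in ein5-1 ski2-3, 2, 4 and 0 in rdr6-11, then 6, 6 and 8 in the triple mutant. AT5G43730 had 24, 10 and 18 counts in Col-0 against 1, 0 and 0 in rdr6-11, and AT1G51480 had 13, 8 and 9 and then 2, 1 and 0. Product counts per MIR472 count were 1.43 to 1.70 in Col-0, 4.83 to 5.93 in ein5-1 ski2-3, 0.0215 to 0.177 in rdr6-11, then 0.302 to 0.5 in the triple mutant. The trigger-to-product ratio was 20.1-fold higher in rdr6-11 than in Col-0 and 13.9-fold higher in the triple mutant than in ein5-1 ski2-3, on few product counts.

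The ratios of the 5 trigger groups were compared in 4 genotype pairs by an exact permutation test over samples, 2-sided, which makes 20 tests. For 3 against 3 samples the test cannot give a p below 0.1, and for 3 against 2 none below 0.2, so no ratio could pass. In all 10 comparisons that remove RDR6 the groups did not overlap and the exact p was the smallest possible, with an adjusted p of 0.222. Leaving out any library changed the direction of none of these 10.

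MIR828 (AT4G27765), the trigger of TAS4, behaved unlike the other members. It had 0, 1 and 1 counts in Col-0, 17, 21 and 9 in ein5-1 ski2-3, 3, 2 and 1 in rdr6-11, then 0, 2 and 0 in the triple mutant. It failed the filter on low counts and is in none of the counts of called members. Summed over libraries, 47 counts in ein5-1 ski2-3 stood against 2 in Col-0, a ratio of 13.0 per normalised library size with a 95% exact binomial interval of 3.41 to 111. Against the 2 counts of the triple mutant the ratio was 17.3 (4.53 to 147). For 6 counts in rdr6-11 against 2 in Col-0 it was 2.12 (0.378 to 21.4), so a difference was not detectable at this depth. These intervals cover counting error only. In the edgeR test without a filter the log2 changes were 3.61 (adjusted p = 8.5e-06) and, for the triple mutant relative to ein5-1 ski2-3, -3.96 (adjusted p = 3.9e-07).

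The products of MIR828 stood high in the same libraries. TAS4 had 82, 45 and 87 counts in Col-0, 1410, 1452 and 1151 in ein5-1 ski2-3, 0, 1 and 1 in rdr6-11, then 0, 1 and 0 in the triple mutant. MYB75, a regulator of anthocyanin synthesis, had 2, 1 and 4 counts in Col-0, 90, 116 and 76 in ein5-1 ski2-3, 3, 0 and 1 in rdr6-11, then 1, 1 and 2 in the triple mutant. MYB90 had at most 12 counts and MYB113 at most 2 in any library, and neither was tested. MIR828 was thus the only member that was near 0 in the triple mutant while high in ein5-1 ski2-3. The remaining members kept 155 to 1319 counts per library there, except MIR400 and MIR472 with 140 to 151 and 46 to 63.

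**Figure D4:**
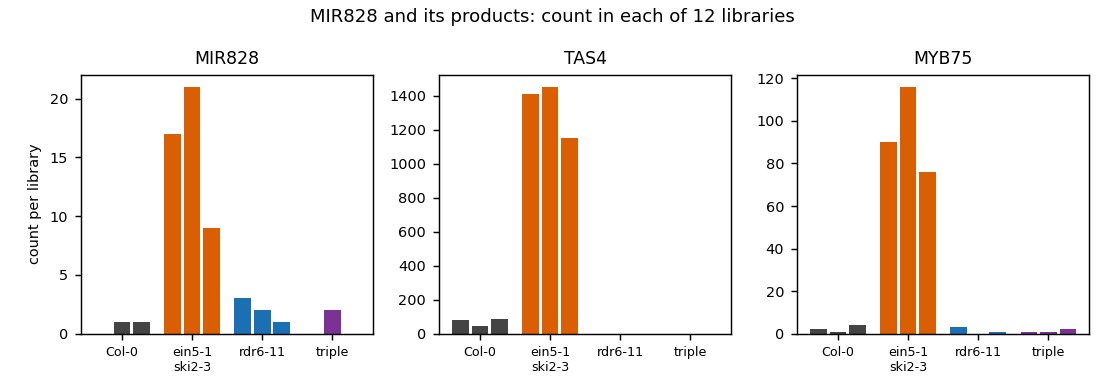
Counts of MIR828, TAS4 and MYB75 in each of 12 libraries (linear axes from 0, bars are libraries in replicate order, colours are genotypes). All of them are highest in the 3 ein5-1 ski2-3 libraries, at 9 to 21, 1151 to 1452 and 76 to 116 counts.

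The loss of decay was compared next, since it moves products and triggers differently. In ein5-1 ski2-3 relative to Col-0, MIR393A and MIR393B rose, by 0.84 ± 0.14 and 0.72 ± 0.13 on the log2 scale (edgeR adjusted p = 1.8e-06 and 1.3e-05). MIR161, MIR390A and MIR390B fell, by 0.98, 0.78 and 0.77. MIR173, MIR400 and MIR472 were at 0.08, -0.26 and 0.38 and did not pass the test under TMM scaling. MIR173 and MIR472 were called higher when scaled to library totals (0.89 and 1.20), to the summed counts of other MIR genes (0.57 and 0.83) and by RLE over those genes (0.41 and 0.69). MIR400 was called higher with library totals, at 0.56, and lower with RLE over all genes, at -0.39, with TMM without rRNA, tRNA and organelle genes, at -0.47, and in the fit to these genotypes alone, at -0.51. Leaving out replicate 2 of rdr6-11, or replicates 1 and 2 of ein5-1 ski2-3 together, also had MIR400 called lower, at -0.46 and -0.88. The background here was 30.5% higher and 18.8% lower. Scaled to library totals, which shifts the median of all genes by 0.81, the MIR390 pair turned to 0.03 and 0.04 and MIR161 lost its call at -0.17. The rise of MIR393A was called under all scalings, but with replicate 3 alone for ein5-1 ski2-3 it was 0.37 and not called. Of the products tested, 14 of 21 PPR loci rose, as did 3 of 3 TIR1/AFB genes and 4 of 4 CC-NB-LRR genes. Of 8 TAS loci, TAS3C and TAS4 rose, while TAS1A, TAS1C, TAS3A and TAS3B fell. AFB3, AT1G15890, AT1G51480, TAS3C and some PPR loci passed the filter through ein5-1 ski2-3, so a rise there is favoured by the filter.

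In plants without RDR6, losing EIN5 and SKI2 lowered all 8 tested members on the TMM scale. The log2 changes in the triple mutant relative to rdr6-11 ran from -0.56 for MIR472 to -1.52 for MIR161. Of all tested genes 20.4% were higher and 25.2% lower, and of the 100 other MIR genes 90. Scaled to the summed counts of other MIR genes, which shifts the median of all genes by 1.38, no member was called lower, 3 were called higher and MIR161 alone kept a negative value, -0.13. On the TMM scale the median was -1.08 over the members and -1.23 over the other MIR genes.

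The change on losing RDR6 was lower in ein5-1 ski2-3 than in wild type for all 8 tested members (interaction term, edgeR). Of all tested genes 31.7% were called lower and 19.8% higher, or 51.5% in all. MIR393A had the largest difference, -1.93 ± 0.19 on the log2 scale (adjusted p = 3.4e-12), and MIR393B was at -1.79 ± 0.18 (adjusted p = 5.4e-12). For the other 6 the difference lay between -0.50 and -0.94, against a median of -0.93 for the other MIR genes. Scaled to those genes, MIR393A and MIR393B were still called, at -0.98 and -0.85. The remaining 6 were not called, and MIR390A, MIR390B, MIR161, MIR400 and MIR472 took values above 0. MIR390A and MIR390B were called under 14 of 22 alternatives. They were not called with RLE over all genes, at -0.37 and -0.38, or with DESeq2.

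The share of MIR counts taken by a member needs no fit, and its order over genotypes differed between members. MIR393A held 0.154 to 0.174% of the MIR counts in Col-0, 0.262 to 0.284% in rdr6-11, 0.383 to 0.422% in ein5-1 ski2-3, then 0.299 to 0.389% in the triple mutant. MIR390A held 0.256 to 0.306% in Col-0, 0.357 to 0.391% in rdr6-11, 0.186 to 0.240% in ein5-1 ski2-3, then 0.388 to 0.419% in the triple mutant. For MIR390A the genotypes lacking RDR6 were both above those that have it. MIR161 held 2.72 to 3.04% in Col-0, 2.48 to 2.66% in rdr6-11, 1.92 to 2.10% in ein5-1 ski2-3, then 2.29 to 2.38% in the triple mutant, so that Col-0 was the highest.

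Compared per length of the annotated gene, MIR161 was the most abundant member in all 4 genotypes, with 524 ± 24.2 CPM per 100 nt (SD, n = 3) in Col-0, followed by MIR173 with 154 ± 14.0. MIR390A at 82.9 ± 6.25, MIR390B at 72.8 ± 5.63 and MIR400 at 72.0 ± 4.93 followed and did not differ from their neighbours beyond the spread. MIR393B at 40.9 ± 2.49 and MIR393A at 39.0 ± 3.33 also overlapped, and MIR472 at 11.6 ± 1.49 and MIR828 at 0.180 ± 0.157 were the lowest. MIR161, MIR173, MIR472 and MIR828 kept the ranks 1, 2, 8 and 9 in every genotype. In ein5-1 ski2-3 the MIR393 genes moved up to ranks 3 and 4 and the MIR390 genes down to 6 and 7. The loci of each pair share reads, so their ranks are not independent. The division by length put MIR393A above MIR393B there, although MIR393B had the higher counts.

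The MIR gene whose level over the 12 libraries was most like that of MIR173 was MIR162b, with a Pearson r of 0.949 on log2(CPM + 1). For MIR161 it was MIR172a (0.987), for MIR400 MIR159b (0.969) and for MIR472 MIR168b (0.934). MIR390A was most like MIR390B (1.000 after rounding) and MIR393A most like MIR393B (0.994), in both cases with shared reads. These values describe libraries that share genotype and depth, among 107 candidate genes, and carry no test.

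Small RNAs from the genes of the pathway itself were few. Of 15 listed genes for microRNA and secondary siRNA production and for decay, AGO1, the main microRNA Argonaute, and DCL1, the enzyme that cuts microRNA precursors, passed the filter. AGO1 had 14, 12 and 15 counts in Col-0, 100, 118 and 89 in ein5-1 ski2-3, 17, 9 and 9 in rdr6-11, then 11, 14 and 17 in the triple mutant. DCL1 had 7 to 8 counts in Col-0, 29 to 38 in ein5-1 ski2-3, 10 to 14 in rdr6-11, then 7 to 10 in the triple mutant. Both rose in ein5-1 ski2-3 relative to Col-0 and fell in the triple mutant relative to ein5-1 ski2-3, and neither passed the test in rdr6-11 relative to Col-0. Of all tested genes, 30.5% were called higher in the first of these comparisons and 27.0% lower in the second. AGO7, the partner of miR390, had at most 6 counts in any library.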

How the data were processed

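Small RNA below 200 nt was extracted with a Norgen microRNA kit and made into libraries with an Illumina TruSeq RNA kit, per the labels' protocols. In 12 libraries, reads were counted per gene model in the deposited table. Its columns of comparisons made by the authors were not used here, because the file headers do not name the genotypes they compare. TAIR10 as build and DESeq, Bowtie2, Bowtie and CASAVA 1.8.2 as tools are named in the submitters' processing notes, without roles. The handling of multiply matching reads is not given in the sources used here. The nearly equal counts of MIR390A and MIR390B show that such reads were counted at each locus. The table gives no read length or strand, so a MIR gene's count includes both arms and precursor fragments.

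The test on these counts was that of edgeR 4.0.16 under R 4.3.3 (TMM, filterByExpr with a minimum count of 10 and total of 15, 2-sided quasi-likelihood F tests, Benjamini-Hochberg adjustment over all 7219 genes kept). The fit had 11 samples, since replicates 1 and 2 of ein5-1 ski2-3 were summed. The p-values measure the spread between libraries, which may be technical. A gene near 0 in other genotypes can pass the filter through 1 genotype. The fit was tested on simulated data. Ratios of trigger to product counts were compared in scipy 1.17.1. Of the gene models, 30403 matched the RefSeq annotation of TAIR10.1, from which names, sequences and positions came. The members, lists and tests were chosen with earlier results of these data known. Named genes were all members, all TAS loci, the 3 most covered genes of each product list, tested pathway genes, the MIR gene most like each member and the overlapping or nearest gene. Replicate numbers did not pair libraries: of 18 same-numbered pairs, 0 had a residual correlation above 0.1. Alternatives tried were other scalings, no filter, DESeq2 1.42.0, 12 separate libraries with and without a replicate block, fits to the compared genotypes alone, and leaving out libraries.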

Additional observations from a re-analysis of the deposited data

Results flagged for a closer look

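For 8 members the change on losing RDR6 differed between the ein5-1 ski2-3 background and the wild type (interaction test in edgeR, adjusted p under 0.05). In that test 31.7% of all tested genes were called lower and 51.5% in either direction. Of 100 other MIR genes, 70 were called lower. The difference of the log2 changes (ein5-1 ski2-3 background minus wild type) was -1.93 for MIR393A and -1.79 for MIR393B, which share reads. It was -0.94 for MIR173, -0.94 for MIR472, -0.72 for MIR400, -0.54 for MIR161, -0.51 for MIR390B and -0.50 for MIR390A. Scaled to the other MIR genes, MIR393A and MIR393B alone passed the test. With RLE over all genes or DESeq2, MIR390A and MIR390B did not pass. The share of all counts on MIR genes was 2.29 to 2.45% in Col-0, rising to 5.29 to 6.09% without RDR6, and 2.43 to 3.69% in ein5-1 ski2-3 against 1.92 to 2.18% for the triple mutant, and its part in these differences was not tested beyond that rescaling.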

How the results depend on the processing

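In rdr6-11 relative to Col-0, MIR390A, MIR390B, MIR393A and MIR393B were called higher under all 23 alternatives, and MIR173, MIR161, MIR400 and MIR472 under 21, the exceptions being the scalings to other MIR genes. Scaled to the summed counts of other MIR genes, 4 members were called higher, and MIR161, MIR400 and MIR472 reversed to -0.18, -0.20 and -0.14. RLE size factors over those genes also gave 4, with -0.14, -0.17 and -0.10. In triple against rdr6-11 the summed scaling called 3 higher, 0 lower and 5443 genes in all, with MIR173, MIR390A, MIR390B, MIR393A, MIR393B, MIR400 and MIR472 reversed to 0.53, 0.11, 0.11, 0.30, 0.31, 0.41 and 0.83. RLE over MIR genes called 2 higher, 1 lower and 5205 in all, with MIR173, MIR393A, MIR393B, MIR400 and MIR472 at 0.40, 0.17, 0.18, 0.28 and 0.70. DESeq2 called 2058 there. In the interaction both MIR scalings called 2 members lower. MIR161, MIR390A, MIR390B, MIR400 and MIR472 reversed to 0.39, 0.44, 0.44, 0.25 and 0.00078 with the sum and 0.40, 0.45, 0.44, 0.24 and 0.0025 with RLE. TMM without rRNA, tRNA and organelle genes called 5, and RLE over all genes called 6.

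In triple against ein5-1 ski2-3 the members called lower were 0 with either MIR scaling, DESeq2 or the compared genotypes alone, 1 with RLE or TMM without rRNA, tRNA and organelle genes, and 6 with library totals, which called 0 higher. DESeq2 called 1520 genes. MIR173 reversed to 0.016 (DESeq2, RLE), 0.088 (compared genotypes alone), 0.044 and 0.10 (MIR sum, MIR RLE). MIR400 reversed to 0.045, 0.052 and 0.076 in the last 3 of these, and MIR161 to -0.38 (library totals) and -0.015 (no filter). In ein5-1 ski2-3 against Col-0, library totals called 5 higher and 0 lower, the MIR sum 4 higher and 1 lower, and MIR RLE 4 higher. MIR173 reversed to -0.052 (DESeq2, RLE), -0.14 (TMM without rRNA, tRNA and organelle genes) and -0.16 (compared genotypes alone). MIR400 reversed to 0.56 (library totals), 0.16 (MIR sum) and 0.035 (MIR RLE), and MIR390A and MIR390B to 0.035 and 0.042 (library totals).

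Leaving out libraries, in triple against ein5-1 ski2-3, gave 2 to 4 members higher, 0 to 3 lower and 1711 to 2986 genes, with ranges of -0.14 to 0.13 for MIR173, -0.20 to 0.45 for MIR400 (0.038 without replicate 2 of rdr6-11), -0.64 to 0.0056 for MIR393A and -0.49 to 0.14 for MIR393B. In ein5-1 ski2-3 against Col-0 it gave 0 to 3 higher and -0.17 to 0.14 for MIR173. In the interaction it gave 3 to 9 lower, where MIR828 can enter the filter. The extremes came mostly from leaving out ein5-1 ski2-3 replicates 1 and 2 together. The miR390 ratio in ein5-1 ski2-3 against Col-0 ran from -0.20 to 0.057. The causes were not tested. The fit with a replicate block over 12 libraries changed no count of members, with 8 higher in rdr6-11 against Col-0 and 2621 genes called, against 2645. The alternative without AT1G62860 was chosen after seeing the data. MIR828 and most auxin receptor and resistance gene products are limited by depth.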
